A study of Mus musculus with 14 samples.

Results

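The genes described here are 32 direct transcriptional targets of p53, taken from a named list and matched by gene identifier to the count tables of a mouse macrophage study. All 32 were found among the 21761 genes with exon counts and among the 18858 genes with intron counts. The cells were primary macrophages grown with L929-conditioned supernatant from bone marrow of FVB/Hsd mice, given a retroviral short hairpin RNA, selected with puromycin and harvested untreated at day 7. One group of 2 libraries carried a scrambled hairpin (scrambled 1 and scrambled 2). The other group of 2 libraries carried a hairpin against Wdr82, 1 library with sh1137 and 1 with sh830, so that hairpin differences are part of the spread of that group. Infection and puromycin selection were shared by both groups. All 4 libraries were made from total RNA depleted of ribosomal RNA. The series has 14 samples, and the 10 others, newly labelled RNA and Menin hairpins among them, were not analysed here. The labels do not say whether libraries of a group came from separate animals or cultures, so the spread between these libraries may be technical. The main fits, described below, hold a term that sets each hairpin library beside 1 scrambled library. Their p-values measure the spread left after that term, and not the whole difference between hairpins or between libraries of a group. Wdr82 belongs to the SET1 complexes, which methylate histone H3 at promoters, and to a phosphatase complex that acts on RNA polymerase II, and the title of the series concerns the early termination of transcription at regulatory elements.

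p53 is a transcription factor that is kept low by the ubiquitin ligase Mdm2 and accumulates when DNA is damaged or when ribosome assembly, nucleotide supply or oncogene signalling is disturbed. It binds pairs of a short decamer in promoters and first introns and raises genes that arrest the cell cycle, repair DNA, restrain growth signalling or start apoptosis. Several of its targets, Mdm2 first among them, act back on p53 itself. Repression of proliferation genes by p53 runs largely through the cyclin-dependent kinase inhibitor Cdkn1a and the DREAM and retinoblastoma protein complexes. Macrophages express many p53 targets without any added damage.

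The p53 response element decamer, 3 purines and 3 pyrimidines around a core with a fixed C and G, was searched in RefSeq promoter windows (GRCm38.p6), which run from 250 bases before to 50 bases after each annotated start. The decamer reads the same on both strands, and no other motif was searched. Windows were at hand for 24 of the 32 genes, 31 windows in all, and 12 of these (38.7%), belonging to 11 genes, held at least 1 decamer. The share over all 32851 windows was 8.36%, and over the 13789 windows of genes tested in the exon fit it was 7.09%. A pair of decamers separated by 0 to 13 bases was found in 1 of the 31 windows (3.23%), 1 of the 2 windows of Cdkn1a, against 0.0731% of all windows. A match of letters is a description and not a binding site. Cdkn1a and Sesn1 had 2 windows each, for different annotated starts, and 1 of the 2 held a decamer. For these genes the start named below is that of the window with the decamer. Trp53inp1, Pmaip1, Zmat3, Perp, Tnfrsf10b, Rrm2b, Xpc and Ddb2 were not in the promoter table. The stretches that follow are from 7 of the genes with a decamer before their start, all genes with full values by library below, chosen to let a reader compare the decamers of genes that did and did not pass the tests; capitals mark the decamer, and each stretch is written 5′ to 3′ on the strand of the gene.
Cdkn1a, chr17:29090886-29090957, plus strand, first decamer 73 bases before the start and 12 bases from the second: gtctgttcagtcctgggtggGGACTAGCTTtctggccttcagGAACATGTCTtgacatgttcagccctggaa
Mdm2, chr10:117710915-117710964, minus strand, 186 bases before the start: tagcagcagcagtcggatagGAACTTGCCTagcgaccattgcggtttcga
Ccng1, chr11:40755442-40755491, minus strand, 185 bases before the start: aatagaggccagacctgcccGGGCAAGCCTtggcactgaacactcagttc
Gadd45a, chr6:67037418-67037467, minus strand, 40 bases before the start: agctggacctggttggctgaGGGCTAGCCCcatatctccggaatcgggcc
Ckap2, chr8:22185993-22186042, minus strand, 203 bases before the start: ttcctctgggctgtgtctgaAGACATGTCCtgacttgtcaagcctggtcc
Bax, chr7:45467070-45467119, minus strand, 201 bases before the start: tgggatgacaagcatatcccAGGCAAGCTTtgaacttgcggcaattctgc
Sesn1, chr10:41887246-41887295, plus strand, 173 bases before the start: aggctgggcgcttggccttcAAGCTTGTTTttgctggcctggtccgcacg

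Exon counts over genes ran from 34787556 to 43372731 per library. Intron counts ran from 7294679 to 27506915, and introns took 40.4% and 44.2% of exon plus intron counts in scrambled 1 and sh1137 but 14.6% and 15.2% in scrambled 2 and sh830. This split crosses the groups, and a term for it (the library term) was part of each fit. Wdr82 had 100 and 144 exon counts per 1000000 gene counts (CPM) in scrambled 1 and 2 against 25.1 and 40.7 CPM with sh1137 and sh830, and fell by 1.91 ± 0.094 on the log2 scale (SE; adjusted p = 0.0022, and 0.44 with the group term alone). Of 7 macrophage markers, 2 (Cd68 and Fcgr1) fell and 0 rose. The summed level of the 7 was 9157 and 10844 CPM in the scrambled libraries and 7982 and 13705 CPM in the knockdown libraries. Lyz2 was the largest part of each sum. It had 4027 and 5916 CPM in scrambled 1 and 2 and 3645 and 9210 CPM with sh1137 and sh830. Of 6 stromal markers, 2 (Col1a1 and Pdgfrb) rose, and their sum was 9.66 and 42.7 CPM against 44.2 and 147 CPM. Col1a1 itself was listed at 0.0978 and 9.26 CPM in the scrambled libraries and at 0.774 and 53.3 CPM with sh1137 and sh830, so it was high in scrambled 2 and sh830. Pdgfrb had 8.63 and 9.58 CPM in scrambled 1 and 2 and 42.35 and 37.3 CPM with sh1137 and sh830. The stromal sum rose from scrambled 1 over scrambled 2 and sh1137 to sh830. Exon levels of Trp53inp1, Gadd45a and Xpc, given below, had the same order. In the stromal sum the place of sh1137 rested on Pdgfrb alone. Each of the other stromal markers was lower in sh1137 than in scrambled 2, as with Col1a2 at 0.747 against 21.5 CPM. Among the markers of T cells (2 of 4 tested), platelets (2 of 4) and dendritic cells (4 of 4), 1 each rose, namely Lck, Ppbp and Xcr1, with sums no higher than 11.1 CPM in any library. Of the neutrophil (4 of 4 tested) and erythroid (1 of 3) markers 0 passed the test in either direction in edgeR or in DESeq2 with the library term, 0 had an unadjusted p under 0.05, and Hbb-bs and Pf4 were at 0 in all libraries. The B cell genes Ms4a1 and Cd79a did not pass over exons, but Ms4a1 rose over introns (2.81 ± 0.53, adjusted p = 0.027), with 3 and 12 intron reads in scrambled 1 and 2 and 41 and 67 reads with sh1137 and sh830. Its exon values were 0.171 and 0.0502 CPM against 0.427 and 1.52 CPM (2.90, adjusted p = 0.084). The part of these marker differences in the results below was not tested. In RNA from whole cultures, a change in the share of cells that express a gene cannot be told apart from a change of RNA per cell.

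Knockdown of Wdr82 was accompanied by a change of 4 of the 31 p53 targets that could be tested over exons. Trp53inp1, Gadd45a and Xpc rose, Ckap2 fell, and 27 did not pass the test (edgeR quasi-likelihood test, adjusted p under 0.05 over all features). The share of all 13884 tested genes that rose was 6.06% and the share that fell was 7.79%, so neither count stood far from the background. The central readouts of p53 activity, Cdkn1a and Mdm2, were not among the genes that passed. Over introns, whose reads come mostly from RNA that has not yet been spliced, Trp53inp1, Xpc, Fas and Ddb2 rose and 0 of the 30 members tested fell, against 5.97% and 3.93% of 12405 genes. With a negative difference over introns, 2 members had an unadjusted p under 0.05, against 13.5% of all genes, and DESeq2 with the library term passed 0. The list median was 0.19 over exons and 0.08 over introns on the log2 scale, beside -0.01 for the median of all genes in either readout.

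A positive sign was more frequent among the p53 targets than a negative one, with 22 of 31 members above 0 and 9 below over exons, where 48.5% of all genes were above 0. Both knockdown libraries lay above both scrambled libraries for 10 members and below them for 5, and the ranges of the groups overlapped for 16. For all genes tested, 15.7% lay fully above and 15.7% fully below. Over introns 5 members lay fully above and 2 fully below, against 17.1% and 14.1% of all genes. At an unadjusted p under 0.05, 11 members were higher and 3 lower over exons, against 14.1% and 18.2% of all genes. The group term alone, without the library term, passed 0 of all genes at the adjusted threshold in edgeR, over exons or introns. At an unadjusted p under 0.05 it had 437 genes higher and 209 lower over exons and 566 and 142 over introns, and DESeq2 with the same terms passed 153 higher and 23 lower over exons. Of the p53 targets, 2 were higher and 0 lower over exons at an unadjusted p under 0.05 with the group term alone.

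**Figure D1:**
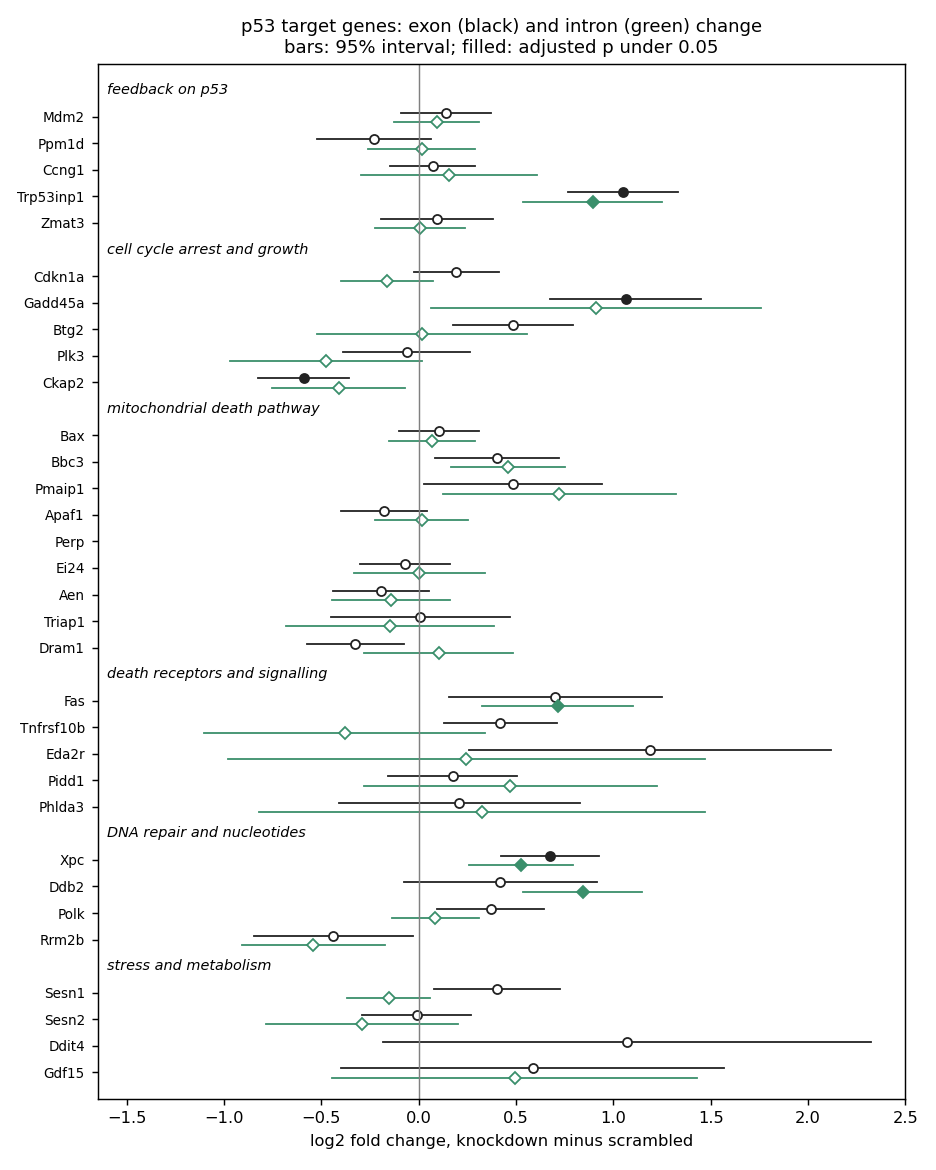
Log2 fold change (knockdown minus scrambled) of each p53 target over exons (black circles) and introns (green diamonds), grouped by role, with 95% intervals from the fit with the library term. Filled symbols have an adjusted p under 0.05: Trp53inp1 and Xpc are filled in both readouts, Gadd45a and Ckap2 over exons, Fas and Ddb2 over introns, and Perp has no value.

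The first group comprises 5 targets that act back on p53. Of these, 1 rose over exons and 0 fell, with a group median of 0.10, where 6.06% of all genes rose and 7.79% fell. Trp53inp1 encodes a nuclear protein that promotes the phosphorylation of p53 and also serves autophagy. It had 31.4 and 52.1 exon CPM in scrambled 1 and 2, 73.0 CPM with sh1137 and 96.0 CPM with sh830. Both knockdown libraries were above both scrambled libraries, and the group means were 41.7 ± 14.6 and 84.5 ± 16.2 CPM (SD, n = 2 each). The rise was 1.05 ± 0.11 on the log2 scale (SE; adjusted p = 0.0098, and 0.63 with the group term alone). Its intron level was 10.5 and 18.4 CPM in the scrambled libraries and 17.7 and 37.9 CPM with sh1137 and sh830. There the groups overlapped slightly, because sh1137 lay just under scrambled 2, and the intron rise was 0.89 ± 0.15 (adjusted p = 0.019). A library can be left out only with the group term alone, and then no change of Trp53inp1 passed the test. The exon value ran from 0.69 without scrambled 1 to 1.46 without scrambled 2, and the intron value from 0.30 without sh830 to 1.42 without sh1137. Trp53inp1 lies on mm9 chromosome 4, 11083588 to 11101524, plus strand.

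Mdm2, the ubiquitin ligase that marks p53 for degradation, had 228 and 201 exon CPM in the scrambled libraries and 237 and 235 CPM in the knockdown libraries. The knockdown libraries were the higher ones, by little, and the log2 difference was 0.14 ± 0.092 (adjusted p = 0.34; 95% interval -0.09 to 0.37). Over introns it was likewise close between groups, 341 and 334 CPM against 350 and 370 CPM (0.09, adjusted p = 0.57). Ccng1, cyclin G1, which brings a phosphatase to Mdm2, had 167 and 339 exon CPM in scrambled 1 and 2 and 180 and 349 CPM with sh1137 and sh830. Its level followed the library split and not the hairpin, and the log2 difference was 0.07 ± 0.086 (adjusted p = 0.60; interval -0.15 to 0.29). For Ppm1d, the phosphatase that removes the activating phosphates of p53, the exon difference was -0.23 (adjusted p = 0.22), with both knockdown libraries (18.9 and 18.4 CPM) below both scrambled libraries (23.0 and 20.9 CPM). Zmat3, an RNA-binding zinc finger protein, differed by 0.10 (adjusted p = 0.60), and its exons share 162 bases with an opposite-strand gene, whose reads could have been counted with it.

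Of the 5 targets that act on the cell cycle and on growth arrest, 1 rose and 1 fell over exons. Of all genes, 6.06% rose and 7.79% fell. Gadd45a, a small stress protein that binds the kinase of mitotic entry and the replication clamp, had 5.77 and 9.88 CPM in scrambled 1 and 2, 11.3 CPM with sh1137 and 21.9 CPM with sh830. Each knockdown library was above both scrambled libraries, with group means of 7.83 ± 2.91 and 16.6 ± 7.48 CPM (SD, n = 2 each). The rise was 1.06 ± 0.15 (SE; adjusted p = 0.017). With 1 library left out it ran from 0.54 without sh830 to 1.55 without scrambled 2, and did not pass. Its intron level, 1.60 and 5.38 CPM against 4.23 and 7.14 CPM, overlapped between groups, and the intron difference of 0.91 did not pass the test (adjusted p = 0.16). Gadd45a lies on mm9 chromosome 6, 66985090 to 66987401, minus strand.

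Ckap2, a spindle-associated protein that is made in dividing cells, was the only member that fell over exons. It had 36.3 and 53 exon CPM in scrambled 1 and 2 and 24.0 and 35.3 CPM with sh1137 and sh830. Both knockdown libraries were below both scrambled libraries, sh830 by a narrow margin. Ckap2 fell by 0.59 ± 0.094 (SE; adjusted p = 0.020), and the difference with 1 library left out, which did not pass, ran from -0.27 without scrambled 2 to -0.89 without sh830. Over introns, with 20.3 and 26.7 CPM against 14.2 and 21.8 CPM, the difference was -0.41 (adjusted p = 0.12).

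Cdkn1a, the p21 inhibitor of cyclin-dependent kinases and the usual readout of p53 activity, had 165 and 154 exon CPM in the scrambled libraries and 181 and 184 CPM with sh1137 and sh830. The groups did not overlap, with means of 160 ± 7.4 and 182 ± 2.2 CPM (SD, n = 2 each). The difference was 0.19 ± 0.086 on the log2 scale (SE), which did not pass the test (adjusted p = 0.18), and its 95% interval ran from -0.02 to 0.41. Over introns the sign was the other one, with 76.4 and 113 CPM in scrambled 1 and 2 and 63.6 and 109 CPM with sh1137 and sh830 (-0.16, adjusted p = 0.33). Btg2, an antiproliferative protein that speeds the shortening of messenger RNA tails, differed by 0.48 over exons (adjusted p = 0.053) and by 0.02 over introns (adjusted p = 0.97). Plk3, a polo-like kinase that responds to stress, differed by -0.06 over exons (adjusted p = 0.77) and shares 76 exon bases with the opposite-strand gene Tctex1d4.

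**Figure D2:**
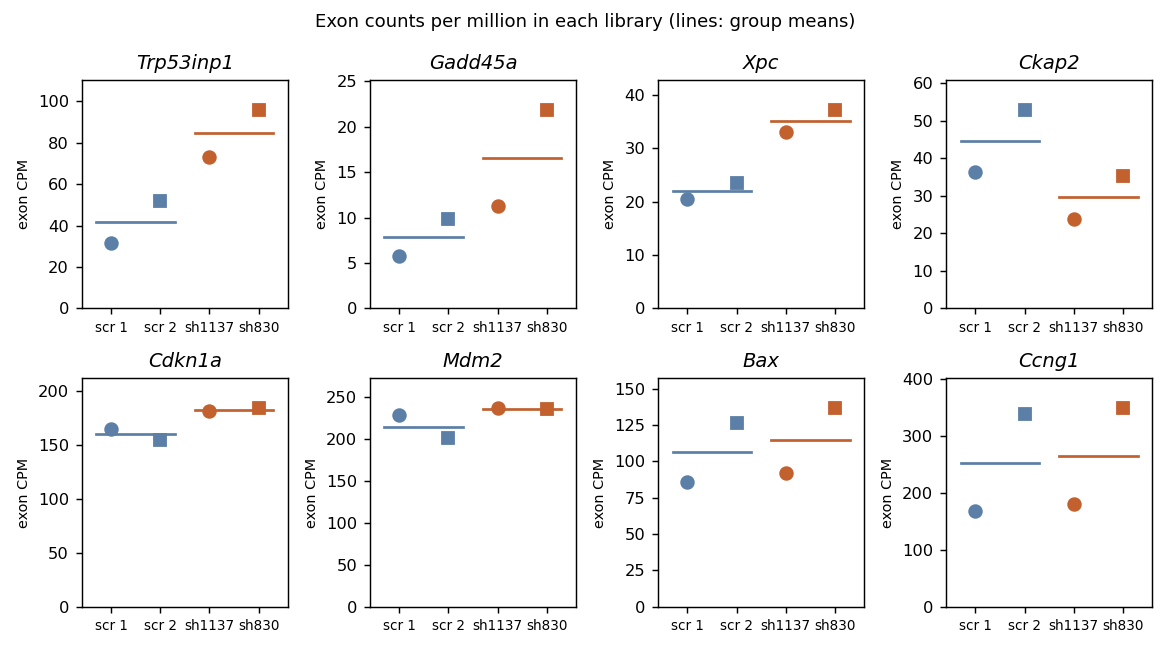
Exon CPM (y axis, linear, from 0) of 8 p53 targets in each library; blue symbols are the scrambled and orange symbols the knockdown libraries, circles have a high and squares a low intron share, and lines are group means. Trp53inp1, Gadd45a and Xpc are higher and Ckap2 lower in both knockdown libraries, Cdkn1a and Mdm2 stay within 154 to 184 and 201 to 237 CPM, and Bax and Ccng1 follow the split of circles and squares.

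The mitochondrial arm of apoptosis and its neighbours had 9 members, of which 8 were tested over exons and 0 passed in either direction (median -0.03). At an unadjusted p under 0.05, 2 of them were higher and 1 lower, against 14.1% and 18.2% of all genes. DESeq2 with the library term passed 0 as well. Bax, the pore-forming effector of the outer mitochondrial membrane, had 86.1 and 126 CPM in scrambled 1 and 2 and 92.0 and 137 CPM with sh1137 and sh830. The groups overlapped along the library split, and the difference was 0.11 ± 0.081 (adjusted p = 0.41; 95% interval -0.10 to 0.31). The BH3-only proteins that act upstream of Bax had larger differences. Bbc3 (PUMA) had 13 and 16.3 CPM against 17.9 and 20.7 CPM, groups that did not overlap, with a difference of 0.40 (adjusted p = 0.085). Pmaip1 (NOXA) had 14.7 and 18.8 CPM against 25.6 and 21 CPM, also without overlap (0.48, adjusted p = 0.13). Their intron differences had the same sign, 0.46 for Bbc3 (adjusted p = 0.063) and 0.72 for Pmaip1 (adjusted p = 0.12).

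The other members of this group were close to their scrambled level or lower. Apaf1, the scaffold of the apoptosome, had both knockdown libraries (164 and 152 CPM) below both scrambled libraries (195 and 165 CPM), with a difference of -0.18 (adjusted p = 0.21) over exons and of 0.02 over introns. Dram1, a lysosomal membrane protein of autophagy, was also lower in both knockdown libraries, with a difference of -0.33 (adjusted p = 0.080), but its introns differed by 0.10 (adjusted p = 0.73). Aen, a nuclease, differed by -0.19 (adjusted p = 0.22) and Ei24, a membrane protein of the endoplasmic reticulum, by -0.07 (adjusted p = 0.62). Triap1, a small mitochondrial protein that restrains apoptosome activation, differed by 0.01 (adjusted p = 0.98). Perp, a tetraspan membrane protein of desmosomes, was too low to be tested, with 3 and 4 exon reads in the scrambled libraries and 1 and 22 reads with sh1137 and sh830. A count of 3 reads corresponded to 0.0692 to 0.0862 CPM in these libraries, so Perp stood above that floor in sh830 (0.521 CPM) and near or under it elsewhere.

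All 5 death receptors and signalling adaptors had a positive exon difference, with a median of 0.42, but 0 passed the test over exons in edgeR or in DESeq2 with the library term. At an unadjusted p under 0.05, 3 of the 5 were higher, against 14.1% of all genes. Over introns 4 of the 5 differences were positive, and that of Tnfrsf10b was -0.38 (adjusted p = 0.46). Fas, the receptor of Fas ligand, had 3.50 and 6.15 exon CPM in scrambled 1 and 2 and 4.94 and 11.4 CPM with sh1137 and sh830. The groups overlapped over exons, and the difference was 0.70 ± 0.22 (SE; adjusted p = 0.084). Over introns they did not overlap, with 10.7 and 12.6 CPM against 16.3 and 22.6 CPM. The intron rise of Fas was 0.71 ± 0.16 (SE; adjusted p = 0.043, and 0.16 in DESeq2 with the library term). It ran from 0.48 without sh830 to 0.97 without sh1137, and passed in neither. Fas lies on mm9 chromosome 19, 34365149 to 34402260, plus strand, and a small nucleolar RNA gene, Snora19, lies in its span.

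Tnfrsf10b, the mouse TRAIL receptor, had 28.9 and 10.2 exon CPM in scrambled 1 and 2 and 36.7 and 14.4 CPM with sh1137 and sh830. The library split was larger than the difference between groups, and within it the exon difference was 0.42 (adjusted p = 0.063). Eda2r, a receptor of ectodysplasin, was rare, with 0.807 and 0.753 CPM against 1.71 and 1.85 CPM. Its groups did not overlap and its difference of 1.19 ± 0.37 was the highest of all members over exons, but it did not pass the test (adjusted p = 0.084), and its 95% interval of 0.26 to 2.11 was wide. Pidd1, the scaffold that activates caspase-2, differed by 0.17 (adjusted p = 0.40). Phlda3, which competes with the kinase Akt for membrane lipids, differed by 0.21 (adjusted p = 0.59).

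Among 4 genes of DNA repair and nucleotide supply, 1 rose over exons and 2 over introns. Of all genes, 6.06% rose over exons and 5.97% over introns. Xpc, which recognises distorted DNA in nucleotide excision repair, had 20.5 and 23.5 exon CPM in the scrambled libraries and 33.0 and 37.3 CPM with sh1137 and sh830. The gap between the groups was wide beside their spread, with means of 22.0 ± 2.1 and 35.1 ± 3.0 CPM (SD, n = 2 each). The rise was 0.67 ± 0.10 (SE; adjusted p = 0.018), and the values with 1 library left out ran from 0.57 without scrambled 1 to 0.80 without scrambled 2, none past the threshold. Over introns Xpc had 22.1 and 36.1 CPM in scrambled 1 and 2 and 32.1 and 51.2 CPM with sh1137 and sh830. The intron groups overlapped, and the intron rise was 0.52 ± 0.11 (adjusted p = 0.037, and 0.16 in DESeq2 with the library term). Leaving out libraries gave intron values from 0.14 without sh830 to 0.90 without scrambled 2. Xpc lies on mm9 chromosome 6, 91439302 to 91465882, minus strand.

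Ddb2, which finds ultraviolet lesions and hands them to Xpc, rose over introns and had no call over exons. Its intron level was 22.0 and 14.8 CPM in scrambled 1 and 2 and 38.2 and 27.8 CPM with sh1137 and sh830. Both knockdown libraries were above both scrambled libraries, and the rise was 0.84 ± 0.13 (SE; adjusted p = 0.015, and 0.017 in DESeq2 with the library term). Leaving out libraries gave values from 0.57 without scrambled 2 to 1.17 without scrambled 1, none past the threshold. Exon values, at 6.92 and 4.64 CPM against 8.89 and 6.47 CPM, overlapped, with a difference of 0.42 ± 0.20 (adjusted p = 0.20). The exons of Ddb2 share 642 bases with the opposite-strand gene Acp2, so part of its exon reads may belong to that gene. Ddb2 lies on mm9 chromosome 2, 91051739 to 91077223, minus strand.

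Polk, a polymerase that copies past bulky lesions, had exon values of 28.6 and 22.3 CPM against 34.3 and 30.9 CPM, without overlap, and a difference of 0.37 (adjusted p = 0.075). Rrm2b, the p53-inducible subunit of ribonucleotide reductase, went the other way in both readouts. Its difference was -0.44 over exons (adjusted p = 0.12) and -0.54 over introns (adjusted p = 0.074). Both knockdown libraries were below both scrambled libraries in each readout, 8.65 and 12.4 CPM against 13.1 and 15.2 CPM over exons.

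Of 4 targets of stress signalling and metabolism, 0 passed the test over exons or introns in edgeR or in DESeq2 with the library term. Over exons 1 was higher at an unadjusted p under 0.05, against 14.1% of all genes. Sesn1, a sestrin that restrains the growth kinase mTORC1, had 54.8 and 71.2 exon CPM in scrambled 1 and 2 and 84.7 and 80.5 CPM with sh1137 and sh830. The groups did not overlap, and the difference was 0.40 ± 0.13 (SE; adjusted p = 0.089). Over introns Sesn1 had 142 and 113 CPM against 126 and 103 CPM, a difference of -0.15 (adjusted p = 0.31). Sesn2, its relative, differed by -0.01 over exons (adjusted p = 0.95). Ddit4, another inhibitor of mTORC1, was rare (0.489 and 2.16 CPM against 1.98 and 2.68 CPM), and its difference of 1.07 had a 95% interval of -0.19 to 2.32 (adjusted p = 0.19). Gdf15, a secreted stress hormone, had 2.91 and 6.30 CPM in the scrambled libraries and 7.34 and 5.74 CPM in the knockdown libraries (0.58, adjusted p = 0.34).

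The hairpins were next compared through library pairs of like intron share, sh1137 with scrambled 1 and sh830 with scrambled 2, as values without a test. Over exons, 18 of the 31 members were higher in both pairs, 7 were lower in both and 6 had opposite signs. For all genes tested, 34.9% were higher in both pairs and 39.5% lower in both. The member median was 0.10 with sh1137 and 0.24 with sh830, on the log2(CPM + 0.5) scale, and scrambled 1 differed from scrambled 2 by a median of -0.30. That difference between control libraries was larger than the median change with either hairpin, but it crosses the split of intron share, which the pairs do not. Over all genes tested the medians were -0.04 with sh1137, 0.001 with sh830 and 0.003 for scrambled 1 minus scrambled 2. Trp53inp1 changed by 1.21 and 0.88 in the pairs of sh1137 and sh830, Gadd45a by 0.91 and 1.11, Xpc by 0.67 and 0.65, and Ckap2 by -0.59 and -0.58. Over introns 13 of 30 members were higher in both pairs, 8 lower in both and 9 opposite, and of all genes 34.0% were higher and 36.7% lower in both.

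**Figure D3:**
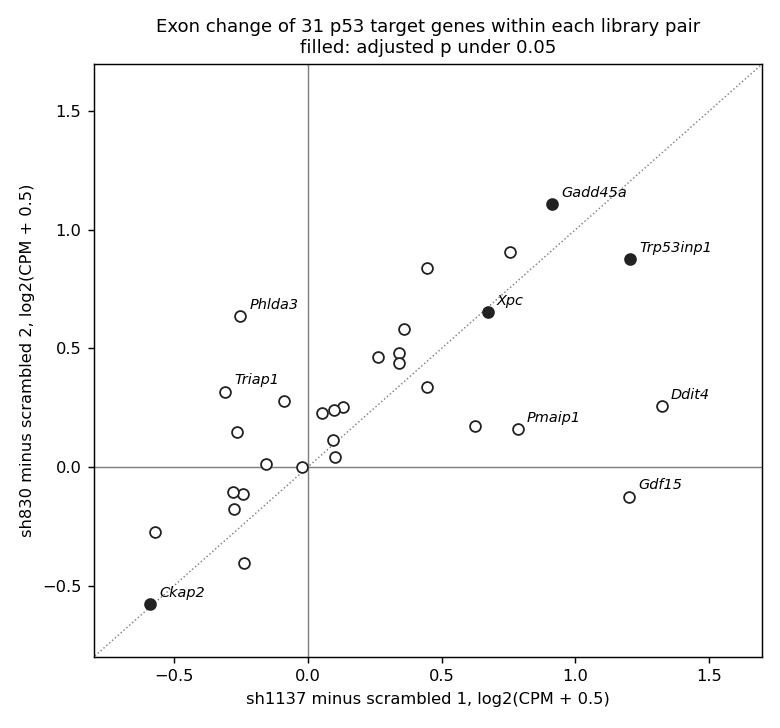
Exon change of 31 p53 targets on the log2(CPM + 0.5) scale, with sh1137 minus scrambled 1 on the x axis and sh830 minus scrambled 2 on the y axis; the dotted line marks equal change and filled points have an adjusted p under 0.05. Xpc and Ckap2 lie on the line, and 18 genes lie in the upper right part. Gdf15, Ddit4, Phlda3, Triap1 and Pmaip1 lie far from the line on either side.

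Intron and exon reads of the same gene did not always change alike. The change over introns minus the change over exons was negative and past the threshold for Sesn1, Cdkn1a and Tnfrsf10b, and positive and past it for 0 of the 30 members tested, against 2.23% and 2.12% of 11772 genes. At an unadjusted p under 0.05, 6 members were negative and 2 positive, against 8.89% and 7.42% of all genes, and 0 passed at the adjusted threshold with the group term alone or with a library left out. For Sesn1 there were 2.60 and 1.58 intron CPM per exon CPM in scrambled 1 and 2, against 1.49 and 1.28 for sh1137 and sh830. Both knockdown ratios were below both scrambled ratios, and the difference of the 2 changes was -0.60 ± 0.11 (SE; adjusted p = 1.7e-05). In this test the SE and p of each gene rested almost wholly on a spread shared across genes. They do not measure how far the 2 library pairs of a single gene differed. For Sesn1 the fall of the ratio was larger in the pair of sh1137 than in that of sh830. Without scrambled 1, the library with the highest ratio, the difference of the changes of Sesn1 was -0.24, and without scrambled 2 it was -0.93. Cdkn1a had ratios of 0.463 and 0.736 in scrambled 1 and 2, against 0.352 and 0.593 for sh1137 and sh830. The ratios overlapped between groups, and each hairpin library was below its scrambled partner. The difference for Cdkn1a was -0.38 ± 0.11 (adjusted p = 0.015), and with 1 library left out it ran from -0.78 without sh830 to 0.05 without sh1137. In Tnfrsf10b the ratios were 0.193 and 0.805 in scrambled 1 and 2, against 0.153 and 0.305 for sh1137 and sh830. Scrambled 2 stood far above the other libraries, the difference was -0.76 ± 0.23 (adjusted p = 0.025), and it ran from -1.98 without scrambled 1 to 0.11 without scrambled 2.

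**Figure D4:**
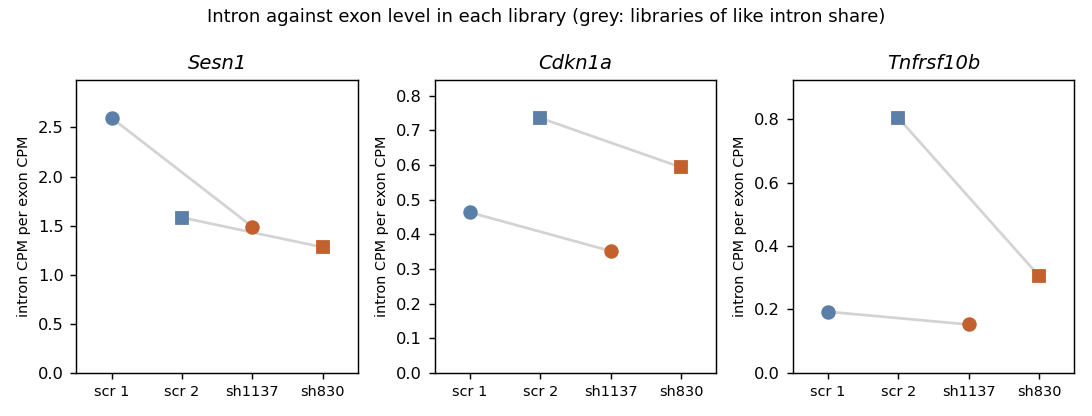
Intron CPM per exon CPM (y axis, linear, from 0) of Sesn1, Cdkn1a and Tnfrsf10b in each library; blue symbols are the scrambled and orange symbols the knockdown libraries, and grey lines join libraries of like intron share. Each line falls towards the knockdown library, from 2.60 to 1.49 and from 1.58 to 1.28 in Sesn1, and the steepest line of Tnfrsf10b starts at 0.805 in scrambled 2.

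Levels of the members spanned a wide range. Per kilobase of exon, the mean scrambled level was highest for Bax (79.3 CPM per kb), Ccng1 (72.6) and Cdkn1a (72.0), 3 genes whose order was not resolved beyond the spread of Bax and Ccng1 between libraries. Mdm2 came next at 50.1 CPM per kb and Ei24 at 29.1. At the low end were Ddit4 (0.785 CPM per kb), Eda2r (0.132) and Perp (0.0457). Per kilobase of intron, Bax (20.6 CPM per kb), Mdm2 (19.3) and Cdkn1a (12.6) led. The members that changed were of middle or low abundance: Ckap2 had 17.2, Trp53inp1 6.54, Gadd45a 6.40 and Xpc 6.07 exon CPM per kb in the scrambled libraries.

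Of the transcribed regions that the authors defined outside genes, 6 were named for a member or lay within 20 kb of one: 2 were named for Gadd45a, 1 for Bax, and 3 for neighbours of Plk3 and Gdf15. The authors chose these regions on a comparison of hairpin and vector libraries, so their direction is not independent evidence, and all 6 rose. The region named Gadd45a_TSS (mm9 chromosome 6, 67045000 to 67068999) lies more than 20 kb from the gene. It had 1.00 and 1.41 CPM in the scrambled libraries and 14.5 and 4.60 CPM with sh1137 and sh830, a rise of 2.78 ± 0.55 (SE; adjusted p = 0.030). Gadd45a_TSS_2 (66987500 to 67032499) begins 99 bases from the start of Gadd45a, on its upstream side. It had 24.7 and 7.38 CPM in scrambled 1 and 2 and 50.5 and 12.3 CPM with sh1137 and sh830, values that followed the library split as well as the hairpins (0.89 ± 0.13, adjusted p = 0.016). Bax_TES (chromosome 7, 52715000 to 52717499) covers 272 bases of Bax exons and the sequence past the end of the gene, and its 10.0 and 6.90 CPM against 19.2 and 14.6 CPM made a rise of 1.01 ± 0.15 (adjusted p = 0.017). Within 20 kb of Gdf15, Pgpep1_TES rose by 1.48 and Lrrc25_TSS by 1.81, and Btbd19_TSS, 1761 bases from Plk3, rose by 2.05. Gdf15, Plk3 and Bax did not themselves pass the test.

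The RNA of p53 itself differed little between the groups, and its protein was not measured here. Trp53 had 76.8 and 86.1 exon CPM in the scrambled libraries and 78.7 and 88.3 CPM with sh1137 and sh830, a difference of 0.04 ± 0.082 on the log2 scale (SE; adjusted p = 0.79; 95% interval -0.17 to 0.24). Mdm4, the partner of Mdm2 that holds p53 inactive, followed the library split, with 71.2 and 36.1 CPM against 78.6 and 43.9 CPM (0.21, adjusted p = 0.17). Cdkn2a, whose ARF product inhibits Mdm2, was low, with 1.61 and 2.31 CPM against 0.694 and 3.29 CPM, and its difference was -0.27 ± 0.50 (adjusted p = 0.74). Of 45 tested regulators and cofactors of p53 (47 listed), 1 rose, 5 fell and 39 did not pass, with a median of -0.11, where 6.06% of all genes rose and 7.79% fell. Hipk2, a kinase that phosphorylates p53, rose by 0.48 (adjusted p = 0.026), with 94.6 and 50.9 CPM in scrambled 1 and 2 against 125 and 74.6 CPM with sh1137 and sh830. Atr, the kinase that responds to stalled replication, fell by 0.84 (adjusted p = 0.013), from 65.9 and 64.7 CPM to 33.9 and 39.3 CPM. Daxx, a histone chaperone that binds p53 and Mdm2, fell by 0.62 (adjusted p = 0.019).

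Of 49 further p53 targets tested (52 listed), 4 rose, 3 fell and 42 did not pass, with a median of 0.08. These shares are near those of all genes (6.06% rose and 7.79% fell). Notch1, the receptor, rose by 0.64 (adjusted p = 0.013), and Ephx1, an epoxide hydrolase, rose by 1.48 (adjusted p = 0.017), with 68.7 CPM in sh830 and no more than 18.5 CPM in any other library. Plk2, a polo-like kinase, fell by 0.72 (adjusted p = 0.012) and Gtse1, a mitotic protein that removes p53 from the nucleus, by 0.48 (adjusted p = 0.029). Several of the 32 genes are also targets of the transcription factors ATF4 and CHOP in the integrated stress response. On that list 2 of 28 tested genes rose, 12 fell and 14 did not pass, with a median of -0.26, against 7.79% of all genes that fell. Slc7a11, the cystine transporter, rose by 2.26 (adjusted p = 0.021) and Vldlr, a lipoprotein receptor with at most 33 reads in a library, by 2.76 (adjusted p = 0.049). Slc7a5, a transporter of large amino acids, fell by 1.18 (adjusted p = 0.0063) and Psat1, of serine synthesis, by 0.91 (adjusted p = 0.0082).

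Cell cycle genes under E2F and DREAM, the arm of the p53 response that is repressed, were lower almost throughout. Of 30 tested, 24 fell, 0 rose and 6 did not pass, with a median of -0.64, against 7.79% of all genes that fell, and 0 of the 30 were above 0. Over introns 12 of 29 fell and 0 rose. Ube2c, which attaches ubiquitin to cyclins at the end of mitosis, had 55.9 and 78.1 CPM in the scrambled libraries and 23.2 and 34.8 CPM with sh1137 and sh830, and fell by 1.22 (adjusted p = 0.0054). Cdc20, the activator of the anaphase-promoting complex, had 75.7 and 98.9 CPM against 39.0 and 50.6 CPM and fell by 0.96 (adjusted p = 0.0064). The median of the list was -0.58 in the pair of sh1137 and -0.69 in that of sh830. With the group term alone 0 of the 30 passed in edgeR or in DESeq2, although the median was -0.65. Ckap2, the member of the p53 list that fell, had a change of similar size.

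**Figure D5:**
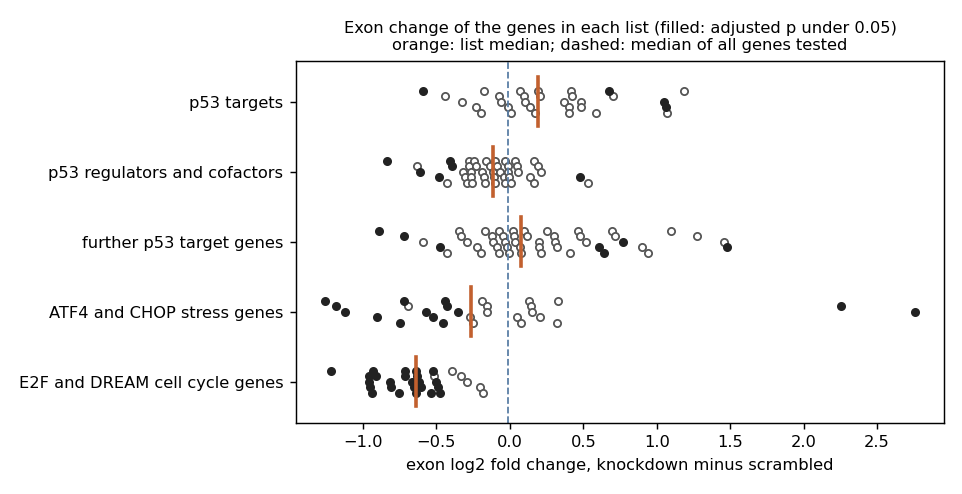
Exon log2 fold change (knockdown minus scrambled, x axis) of each tested gene of the p53 targets and of 4 related lists; points are spread vertically for legibility, filled points have an adjusted p under 0.05, orange bars are list medians and the dashed line is the median of all genes tested. The p53 targets have a median of 0.19 and 4 filled points, while the E2F and DREAM list has a median of -0.64 and 24 filled points.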

How the data were processed

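The 32 genes and the further lists were chosen with earlier results of these data known. For each of 4 untreated total-RNA libraries, the authors deposited read counts (whole numbers, not normalized) over the exon intervals and over the intron intervals of each gene, with mm9 annotation. Tools in the submitters' processing notes are TopHat 1.3.1, Cufflinks 2.1.1 and 2.1.1 of Cuffdiff, and SICER. The counting tool and its use of strand are not given in the sources used here, so reads of overlapping genes may be shared. Genes and regions entered a single exon fit in edgeR 4.0.16 under R 4.3.3, with quasi-likelihood F-tests, the filterByExpr filter, TMM factors computed on genes, and terms for group and for intron share (the library term). That term too was chosen with earlier results known and leaves 1 residual degree of freedom, so the tests lean on the spread shared across genes. Introns were fitted separately with factors of their own. To compare introns with exons, a group by interval type interaction was tested with a term per library. The SE and p-values of that interaction rest almost wholly on the spread shared across genes. P-values were adjusted by Benjamini-Hochberg over all features, threshold 0.05, and "rose" and "fell" mean past it. CPM are counts per 1000000 scaled by these factors, and means ± SD are over 2 libraries. With 2 libraries a group, exact permutation can reach no p below 0.33 and was not used. The fits were tested on simulated data, where the exon fit with the library term and the fit of intron against exon change made more false calls than the threshold allows. The exon fit made 23, and recovered 67.7% of 99 genes changed 2-fold and 34.3% of 99 changed 1.5-fold. The intron fit made 5, and recovered 78.6% of 98 and 41.4% of 99. For intron against exon change there were 25, with 61.3% of 93 and 17% of 94 recovered. A gene that did not pass may therefore have changed. Full values were given for members past the threshold in any of the 3 tests and for Cdkn1a, Mdm2, Bax and Ccng1. Wdr82, Trp53, Mdm4 and Cdkn2a were always named, and each further list is represented by the 2 called genes of smallest p per direction. Library values of other members, and the marker genes named, were chosen after their values were seen. Alternatives were DESeq2 1.42.0, RLE factors, library totals, no filter on low counts, the group term alone, a crossed library term (scrambled 1 with sh830), and each library left out, the last added after seeing the data for intron against exon change. Promoter windows are from RefSeq. Ly6g and Hba-a1 were not analysed here. A further marker gene is not reported here.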

Additional observations from a re-analysis of the deposited data

Results flagged for a closer look

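The p53 targets Triap1 and Phlda3 moved in opposite directions with the 2 hairpins by more than 0.25 on the log2(CPM + 0.5) scale, a limit chosen after the values were seen. Triap1 was 0.31 lower with sh1137 than in scrambled 1 (-0.31) and 0.32 higher with sh830 than in scrambled 2. Phlda3 changed by -0.25 with sh1137 and by 0.64 with sh830. Each hairpin has 1 library, so the difference between hairpins was not tested. Over exons Triap1 had 17.4 and 21.5 CPM in scrambled 1 and 2 and 13.9 and 26.9 CPM with sh1137 and sh830, and Phlda3 had 9.54 and 14.1 CPM against 7.92 and 22.2 CPM.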

How the results depend on the processing

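The calls rest on the library term. Of the p53 targets that rose over exons (3) or fell (1), 0 passed with the group term alone, with the crossed library term, with DESeq2 and the group term alone, or with any library left out (0 to 0), settings that leave the split of intron share in the spread. DESeq2 with the library term and RLE factors called the same 4 genes, and without the filter on low counts Btg2 was added. Library totals called 5 higher, adding Btg2 and Tnfrsf10b, and moved the share of higher genes among all exon calls from 43.8% to 58.9%. Over introns 4 rose, against 5 with RLE factors, library totals or no filter (adding Bbc3), 2 with DESeq2 and the library term (Trp53inp1 and Ddb2) and 0 with the group term alone, the crossed term, DESeq2 with the group term alone or a library left out (0 to 0). Rrm2b was 1 call lower over introns with RLE factors and also 1 without the filter on low counts, against 0. The 3 differences of intron and exon change numbered 0 with the group term alone, the crossed term or a library left out (0 to 0). Counts over all genes moved too: the 1081 exon falls were 653 with library totals, and the 740 rises and 488 falls over introns were 1091 and 915 with RLE factors, 1233 and 1133 without the filter, and 565 and 318 with DESeq2 and the library term. With all 4 libraries and the group term alone in edgeR, none of the further lists kept a call. The ATF4 and CHOP list kept 1 higher gene with the crossed term. It kept 1 higher and 1 lower gene with DESeq2 and the group term alone. The other further lists kept none in these settings. The direction of 220 of 238 gene values held. The exceptions included values near 0 and larger ones. Bax was at -0.15 without scrambled 1 and -0.20 without sh830, Ccng1 at -0.37 and -0.49, and Trp53 at -0.06 and -0.04. Mdm4 was at -0.19 without scrambled 2 and -0.30 without sh1137 (introns -0.15 and -0.12). Cdkn2a was at 0.03 with the group term alone and 0.02 with DESeq2 and the group term alone. Cdkn2a was at 0.33 without scrambled 2 and 0.74 without sh1137. Without scrambled 2, introns of Wdr82 were at 0.03 and those of Trp53 at -0.01. Intron against exon change turned from -0.38 to 0.05 for Cdkn1a without sh1137 and from -0.76 to 0.11 for Tnfrsf10b without scrambled 2. Whether other differences between libraries cause these shifts was not tested. By replicate number, no paired analysis was possible because the knockdown libraries carry no replicate number in the labels. The library term pairs libraries by their measured intron share and not by a label, scrambled 1 with sh1137 and scrambled 2 with sh830. In that sense the fits with the library term were paired. Depth limited Perp, Ddit4 and Eda2r.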
